A study of Mus musculus with 6 samples.

Results

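The genes described here are 39 enzymes and transporters of glucose metabolism: the carriers that bring glucose in, the enzymes of glycolysis with their paralogs, the kinases that switch off pyruvate dehydrogenase (PDH), the bifunctional enzymes that set the level of fructose 2,6-bisphosphate, and the enzymes that build and break glycogen. They were taken by name from the deposited count table, and all 39 were found among its 31017 rows. The measurements are mRNA sequencing of 4T1, an established line from a BALB/c mouse breast tumour, grown in collagen I gels. The 3 control libraries came from cells nucleofected with Cas9 and control guide RNAs, and the 3 KO libraries from cells nucleofected with Cas9 and guides for FGFR2, a cell-surface receptor that binds fibroblast growth factors. Every culture, control or KO, had therefore received Cas9, nucleofection, a collagen gel (1.2 or 2.4 mg/ml, without a record of which library had which), medium with 10% serum, and a collagenase digestion before freezing. Neither the time in culture nor whether the KO cells were a pool or 1 clone is given in the sources used here.

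Glycolysis splits glucose into pyruvate in the cytosol, and tumour cells commonly run it fast and reduce the pyruvate to lactate even with oxygen at hand. Most steps can be catalysed by more than 1 gene product, and the paralogs differ in affinity, in allosteric control and in the tissue that uses them. Many of these genes are textbook targets of the transcription factor HIF-1, which is stable when oxygen is low, and of MYC. PDH kinases phosphorylate and inhibit PDH, which feeds pyruvate into the mitochondria, while glycogen stores glucose as a branched polymer.

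In the KO libraries the glycolytic enzymes were lower from the first step to the last. Of the 39 members, 34 passed the filter on low counts. By the test across genes 24 of them fell and 2 rose, and the other 8 were not called (edgeR quasi-likelihood, Benjamini-Hochberg adjusted p below 0.05 over all 12158 genes tested). Among all genes tested 27.5% fell, 27.1% rose and 54.6% changed in either direction. The median log2 fold change, KO over control, was -0.64 over the 34 tested members and -0.01 over all genes tested. A fall to 50% of the control or less was called for 9 members, and for 3.87% of all genes. The paralogs of a step did not move alike. The falls were deepest for Aldoc, Eno2, Pdk1, Pgm2 and Pfkp. Here Pgm2 is the name of the deposited row, a symbol that has been exchanged with Pgm1 in mouse. By its place in the table that row holds the gene now named Pgm1. The 2 members that rose, Pfkfb3 and Pfkfb2, belong to the same enzyme family as Pfkfb4, which fell.

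The libraries held 15531790 to 20447719 counts. Fgfr2 itself stood at 99.7 ± 5.82 CPM (a gene's counts relative to its library's scaled total) among controls and 92.6 ± 10.4 CPM among KO libraries (SD, n = 3), with overlap. Because the cut site of the guides is not given in the sources used here, the sum of reads over Fgfr2 is no check of the labels. The epithelial markers of the line were abundant, with a summed level over 6 genes of 4888 to 5006 CPM in the control against 4017 to 4102 CPM with the KO, where 5 of them fell and 1 rose. Of 8 leukocyte markers 3 had enough counts to be tested, and the only one called was Cd68, which fell from 13.7 to 5.97 CPM. The pan-leukocyte gene Ptprc reached 0.107 CPM at most, while Adgre1 and Cd3e were at 0. The 8 summed to 23.0 to 25.5 CPM in the control and 15.8 to 16.9 CPM with the KO. Of 6 fibroblast markers 2 were tested, and Col1a1 rose, from 0.437 to 1.24 CPM. Dcn and Pdgfrb, too low to be tested, were also higher in every KO library. Their means went from 0.036 to 0.564 CPM and from 0.043 to 0.442 CPM. Lum and Col3a1 were at 0. The 6 summed to 36.3 to 38.2 CPM in the control and 39.6 to 45.3 CPM with the KO, mostly Pdgfra. The 4 endothelial markers, of which 0 were tested, summed to 0.588 CPM at most, with Kdr and Tek at 0. The 6 muscle markers, listed because muscle is the usual site of Pgam2, Eno3 and Pygm, summed to 1.58 to 2.61 CPM in the control and 1.39 to 1.74 CPM with the KO. Ckm was at 0, and Myh1, the only 1 of them that was tested, fell. The part of these other cell types in the results was not tested. Fewer cells using a gene and less RNA per cell cannot be told apart in bulk libraries.

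Promoters of members that fell, rose or were not called are shown first, so that their letters can be set beside the values that follow. The core letters that HIF-1 binds are ACGTG or GCGTG on either strand, and CACGTG, which contains ACGTG on both strands and so counts as 2 matches, is the E-box of MYC and related factors. Promoter windows of RefSeq (build GRCm38.p6, 250 bases before to 50 after a start site) were found for 36 of the 37 members with an unambiguous symbol, 56 windows in all, some of which overlap. The 250 bases upstream of a start site are printed 5′ to 3′ on the gene's strand for 6 members with different behaviour. Every ACGTG on either strand is in capitals. Ldha, Pdk1 and Pfkfb3 have several windows, and the one richest in ACGTG, then in GCGTG, was chosen for print. Match counts of the printed windows of these members are therefore not typical of all their start sites. Hk2, Pgk1, Ldha and Pdk1 fell, Pdk3 did not pass the test, and Pfkfb3 rose.
Hk2 (chr6:82774455-82774704, minus strand): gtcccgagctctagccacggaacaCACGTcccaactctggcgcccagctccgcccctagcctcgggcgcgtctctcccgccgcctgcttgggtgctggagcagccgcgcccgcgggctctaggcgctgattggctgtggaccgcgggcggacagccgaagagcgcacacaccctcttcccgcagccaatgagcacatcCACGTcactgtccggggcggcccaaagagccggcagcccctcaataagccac
Pgk1 (chrX:106186850-106187099, plus strand): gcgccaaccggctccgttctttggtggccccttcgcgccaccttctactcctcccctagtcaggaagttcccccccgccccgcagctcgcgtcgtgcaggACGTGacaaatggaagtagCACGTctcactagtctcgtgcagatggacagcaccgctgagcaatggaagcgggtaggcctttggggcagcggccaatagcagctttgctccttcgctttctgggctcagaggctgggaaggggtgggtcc
Ldha (chr7:46845554-46845803, plus strand): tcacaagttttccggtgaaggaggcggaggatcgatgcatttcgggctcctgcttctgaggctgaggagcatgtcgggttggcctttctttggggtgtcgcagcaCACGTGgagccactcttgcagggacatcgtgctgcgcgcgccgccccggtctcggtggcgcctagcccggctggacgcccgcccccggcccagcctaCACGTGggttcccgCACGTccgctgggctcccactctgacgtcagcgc
Pdk1 (chr2:71872974-71873223, plus strand): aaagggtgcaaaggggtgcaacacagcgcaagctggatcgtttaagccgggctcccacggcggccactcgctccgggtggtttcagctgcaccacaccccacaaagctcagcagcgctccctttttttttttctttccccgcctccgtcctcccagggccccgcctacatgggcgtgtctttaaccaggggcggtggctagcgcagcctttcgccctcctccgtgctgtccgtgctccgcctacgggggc
Pdk3 (chrX:93832151-93832400, minus strand): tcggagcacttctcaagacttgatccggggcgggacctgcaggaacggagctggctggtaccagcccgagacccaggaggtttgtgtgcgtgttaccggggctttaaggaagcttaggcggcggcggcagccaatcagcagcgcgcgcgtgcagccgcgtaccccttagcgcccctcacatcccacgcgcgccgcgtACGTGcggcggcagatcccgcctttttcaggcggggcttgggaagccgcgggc
Pfkfb3 (chr2:11502091-11502340, minus strand): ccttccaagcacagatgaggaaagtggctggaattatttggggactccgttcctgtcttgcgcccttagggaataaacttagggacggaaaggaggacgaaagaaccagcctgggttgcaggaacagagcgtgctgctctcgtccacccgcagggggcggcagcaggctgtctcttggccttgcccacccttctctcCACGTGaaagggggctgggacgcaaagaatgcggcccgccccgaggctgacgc

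In the printed windows, ACGTG had 5 matches in Ldha, 2 each in Hk2, Pgk1 and Pfkfb3, 1 in Pdk3 and 0 in Pdk1. GCGTG had 3 matches in Pdk3, 1 each in Pdk1 and Pfkfb3, and 0 in Hk2, Pgk1 and Ldha. A second window of 300 bases, not printed, held 1 ACGTG for Pfkfb3 and 0 for Ldha and Pdk1. Over the full windows of 300 bases, ACGTG occurred in 24 of the members' 56 windows (42.9%) and in 19.6% of all 32851 windows of the table. GCGTG occurred in 53.6% of the members' windows and 32.4% of all windows, and CACGTG in 8.93% and 7.15%. The members' windows were also richer in G and C, with a median of 58.8% beside 52.7% over all windows, and the part of base composition in these shares was not tested. ACGTG was present in at least 1 window of 11 of the 23 members that fell, of both that rose, of 5 of the 7 that did not pass the test and of 2 of the 4 that were not tested. ACGTG therefore occurred in members of every kind of response. Over all genes with a window, 5886 of 27025 had ACGTG in at least 1, beside 20 of the 36 members. A member with more windows had more chances of a match. GCGTG, found in 24 of the 36 members, was not counted by response. A match describes the sequence only and is no evidence of binding.

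Transcripts of the main glucose carrier were lower in the KO libraries. Slc2a1 (GLUT1, the basal glucose carrier of most cells and of tumours) stood at 163, 165 and 162 CPM in control replicates 1 to 3 and at 83.9, 80.7 and 91.3 CPM in KO replicates 1 to 3. The groups lay far apart, and Slc2a1 had a log2 fold change of -0.94 (95% interval -1.03 to -0.85, SE 0.045, edgeR adjusted p = 9.39e-20). Slc2a8 (GLUT8, a carrier found mainly on internal membranes) had 6.84 to 7.41 CPM in the control against 5.11 to 6.47 CPM with the KO, without overlap, but did not pass the test (log2 fold change -0.29, edgeR adjusted p = 0.0884). Slc2a3 (GLUT3, the high-affinity carrier of neurons) had 6 counts over all libraries and was not tested. Per kb of exon, Slc2a1 made up 95.4% ± 0.210 of the 3 carriers in the control and 93.0% ± 0.438 in the KO libraries (SD, n = 3).

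The hexokinases, which trap glucose as glucose 6-phosphate, both fell, and the inducible paralog fell more. Hk2, the form raised in many tumours, went from 159, 163 and 155 CPM in the control to 87.4, 88.2 and 89.8 CPM with the KO, or -0.85 as log2 fold change (SE 0.043, edgeR adjusted p = 3.11e-19). Hk1, the form of most tissues, went from 266, 258 and 276 CPM to 194.5, 199.5 and 195.7 CPM, or -0.44 as log2 fold change (SE 0.038, edgeR adjusted p = 1.65e-12). The 95% intervals of the 2 falls, -0.93 to -0.76 for Hk2 and -0.52 to -0.36 for Hk1, did not overlap. Hk1 was the more abundant of the pair per kb of exon, and its share of the step was 53.8%, 52.6% and 55.4% in the control and 60.9%, 61.3% and 60.3% in the KO libraries. Hk3, a form of blood cells, had 5 counts in all and was not tested.

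Shares of this kind do not depend on how libraries are scaled to each other. In all, 23 shares in 9 steps were compared by an exact two-sided permutation test over libraries, and 17 of them did not overlap between the groups. Each of those 17 had an exact permutation p of 0.10, the smallest value that 3 against 3 libraries can give, and 0.135 after Benjamini-Hochberg adjustment over the 23 shares, so no share could pass a threshold of 0.05 in this design. Levels of different genes are compared only per kb of exon, with lengths from the GENCODE M21 annotation of mm10.

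**Figure D1:**
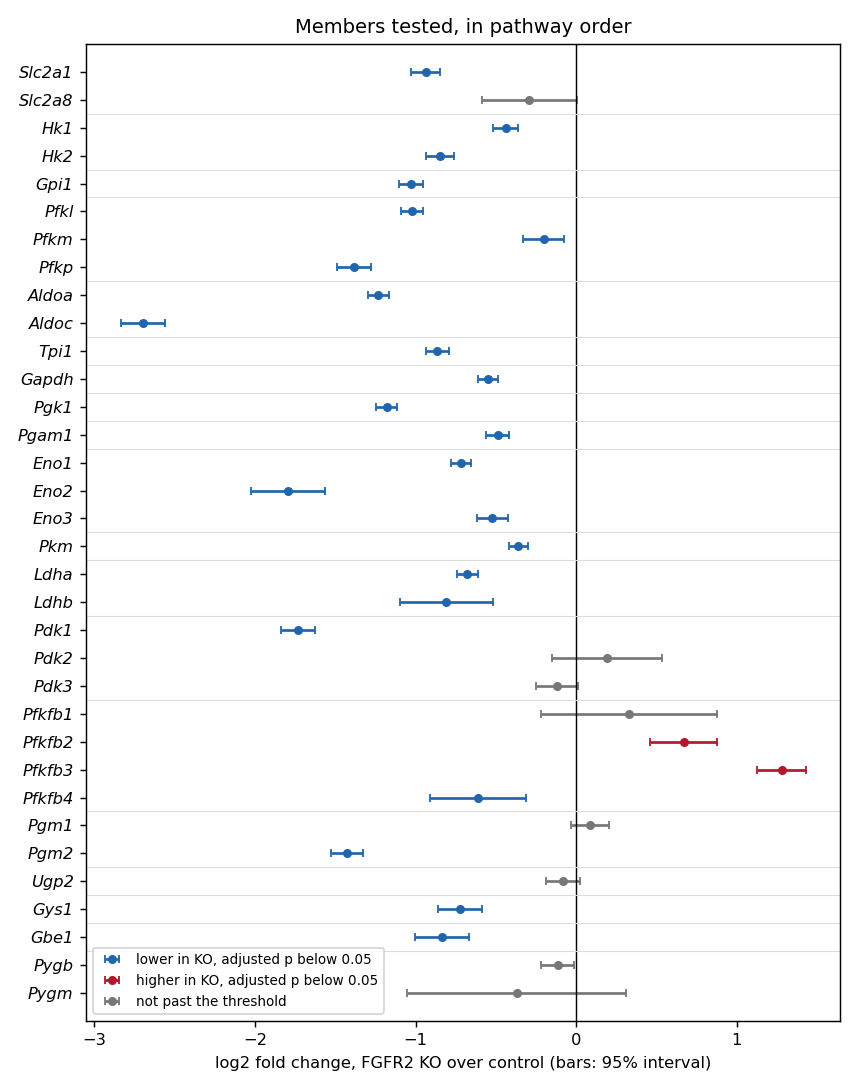
Log2 fold change (horizontal axis, KO over control) of the 34 tested members, from glucose uptake at the top to glycogen at the bottom, with grey lines between steps. Points are edgeR estimates from 3 libraries per group and bars are 95% intervals. Slc2a1 to Ldhb lie left of 0, Aldoc farthest at -2.70, and Pfkfb3 lies farthest right at 1.28.

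Phosphoglucose isomerase, which turns glucose 6-phosphate into fructose 6-phosphate and has a single gene, fell to about the same extent as the main phosphofructokinase after it. Gpi1 was at 538, 539 and 553 CPM in the control against 261, 279.6 and 259 CPM with the KO (log2 fold change -1.03 with SE 0.036, edgeR adjusted p = 4.13e-24). Phosphofructokinase-1 commits the sugar to glycolysis and is assembled from liver-type (Pfkl), muscle-type (Pfkm) and platelet-type (Pfkp) subunits. Pfkl, the leading subunit here, went from 519, 521 and 516 CPM to 257, 256 and 254 CPM (log2 fold change -1.02 with SE 0.034, edgeR adjusted p = 8.72e-25). Pfkp fell further, from 107, 108 and 106 CPM to 38.0, 42.2 and 42.6 CPM (log2 fold change -1.39 with SE 0.052, edgeR adjusted p = 3.65e-23). Pfkm fell least of the 3, from 46.6, 51.9 and 47.6 CPM to 38.6, 44.4 and 43.95 CPM. Its groups did not overlap, and its log2 fold change was -0.20 (SE 0.063, edgeR adjusted p = 0.0066). The Pfkm call was lost without control replicate 2 (log2 fold change -0.15, edgeR adjusted p = 0.081) and without KO replicate 1 (-0.14, edgeR adjusted p = 0.072). The subunit mix shifted accordingly. Pfkm held 14.5% ± 0.669 of the step in the control and 23.45% ± 1.36 in the KO libraries (SD, n = 3), while Pfkl went from 77.5% ± 0.644 to 70.9% ± 1.61 and Pfkp from 7.97% ± 0.026 to 5.66% ± 0.254. Without division by length the share of Pfkl differed by -1.47 rather than -6.60 percentage points. Its groups then overlapped (exact permutation p = 0.20). The share of Pfkp differed by -3.79 rather than -2.31 and that of Pfkm by 5.27 rather than 8.91. The order of these 2 in the control also rests on length, with Pfkp at 15.9% and Pfkm at 7.22% without it.

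The aldolases, which split fructose 1,6-bisphosphate, were the step that fell most. Aldoa, the form of muscle and of most proliferating cells, was at 1715, 1743 and 1737 CPM in the control against 745, 741 and 727 CPM with the KO, or -1.23 as log2 fold change (SE 0.031, edgeR adjusted p = 1.73e-28). Aldoc, the form typical of brain (chromosome 11, 78322968 to 78327781 of mm10), had the deepest fall of all members. It was at 71.0, 72.03 and 74.3 CPM in the control against 10.97, 11.3 and 11.2 CPM with the KO, 15.4% of the control level (log2 fold change -2.70 with SE 0.069, edgeR adjusted p = 2.16e-28). Its 95% interval, -2.84 to -2.56, lay wholly below that of Aldoa, -1.29 to -1.17. Per kb of exon, Aldoc supplied 4.50%, 4.49% and 4.64% of aldolase transcripts in the control and 1.65%, 1.70% and 1.72% in the KO libraries, so Aldoa was nearly the whole of this step in both groups.

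Triosephosphate isomerase (Tpi1), which interconverts the 3-carbon sugars, fell from 807, 802 and 833 CPM to 457.5, 461 and 423 CPM (log2 fold change -0.86 with SE 0.035, edgeR adjusted p = 4.52e-22). Gapdh, the oxidising step and a common reference gene in expression assays, fell from 1869, 1913 and 1978 CPM to 1332, 1311 and 1290 CPM (log2 fold change -0.55 with SE 0.031, edgeR adjusted p = 1.07e-17). Gapdh was thus not level between the groups. Pgk1, the first enzyme of the pathway to yield ATP (chromosome X, 106187100 to 106203699 of mm10), went from 1244, 1276 and 1278 CPM to 554, 568 and 555 CPM (log2 fold change -1.18 with SE 0.032, edgeR adjusted p = 1.18e-27). Neighbouring steps therefore fell by different amounts, with Pgk1 at 44.1% of its control level and Gapdh at 68.3%.

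The phosphoglycerate mutase of most tissues, Pgam1, fell from 326, 329 and 323.5 CPM to 226, 237.5 and 234 CPM (log2 fold change -0.49 with SE 0.036, edgeR adjusted p = 2.61e-14). Its muscle paralog Pgam2 had 0 counts in every library, which allows a level of up to 0.148 to 0.194 CPM (3 counts of a library's total, for counting error only). Enolase makes phosphoenolpyruvate, and all 3 of the enolase genes among the members were detected. Eno1, the widely used form, fell from 1790, 1791 and 1777 CPM to 1065, 1075 and 1114 CPM (log2 fold change -0.72 with SE 0.031, edgeR adjusted p = 2.08e-21). Eno2, the neuronal form, fell far more, from 24.15, 21.5 and 18.8 CPM to 6.10, 6.03 and 6.47 CPM (log2 fold change -1.80 with SE 0.113, edgeR adjusted p = 2.66e-16). Eno3, the muscle form, fell from 123, 135 and 136 CPM to 97.5, 90.9 and 86.0 CPM (log2 fold change -0.52 with SE 0.048, edgeR adjusted p = 1.35e-11). Every muscle marker other than Myh1 was at or below 0.374 CPM in these libraries. By share, Eno2 went from 1.11% ± 0.144 to 0.515% ± 0.015 of the step and Eno3 from 18.3% ± 0.884 to 20.6% ± 1.39 (SD, n = 3), while the share of Eno1 overlapped between the groups (exact permutation p = 0.30). The level of the Eno3 share rests on the length used, and with the longest transcript it was 8.63% in the control and 9.83% in the KO libraries. Eno1b, an annotated retrogene copy of Eno1 whose reads may be exchanged with it, fell too (log2 fold change -0.60). With its counts added to Eno1 the log2 fold change of Eno1 was -0.71.

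Pyruvate kinase (Pkm) was the most abundant member per kb of exon, at 842 CPM per kb in the control, and changed least among the single-gene steps of glycolysis. It stood at 4140, 4173 and 4320 CPM in the control against 3274, 3335 and 3237 CPM with the KO (log2 fold change -0.36 with SE 0.029, edgeR adjusted p = 3.09e-13). Counts per gene cannot separate its M1 and M2 splice forms. Ldha, which reduces pyruvate to lactate and is the form of glycolytic tissue, fell from 1198, 1248 and 1233 CPM to 762.5, 795 and 741 CPM (log2 fold change -0.68 with SE 0.033, edgeR adjusted p = 1.04e-19). Ldhb, the form of oxidative tissue such as heart, was low throughout and fell from 8.56, 9.55 and 9.42 CPM to 6.04, 5.21 and 4.49 CPM (log2 fold change -0.81 with SE 0.142, edgeR adjusted p = 9.18e-06). Here the 2 paralogs fell side by side. The share of Ldhb was 1.55% ± 0.059 in the control and 1.42% ± 0.198 in the KO libraries, with overlap (SD, n = 3, exact permutation p = 0.40), a difference of -0.13 percentage points.

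**Figure D2:**
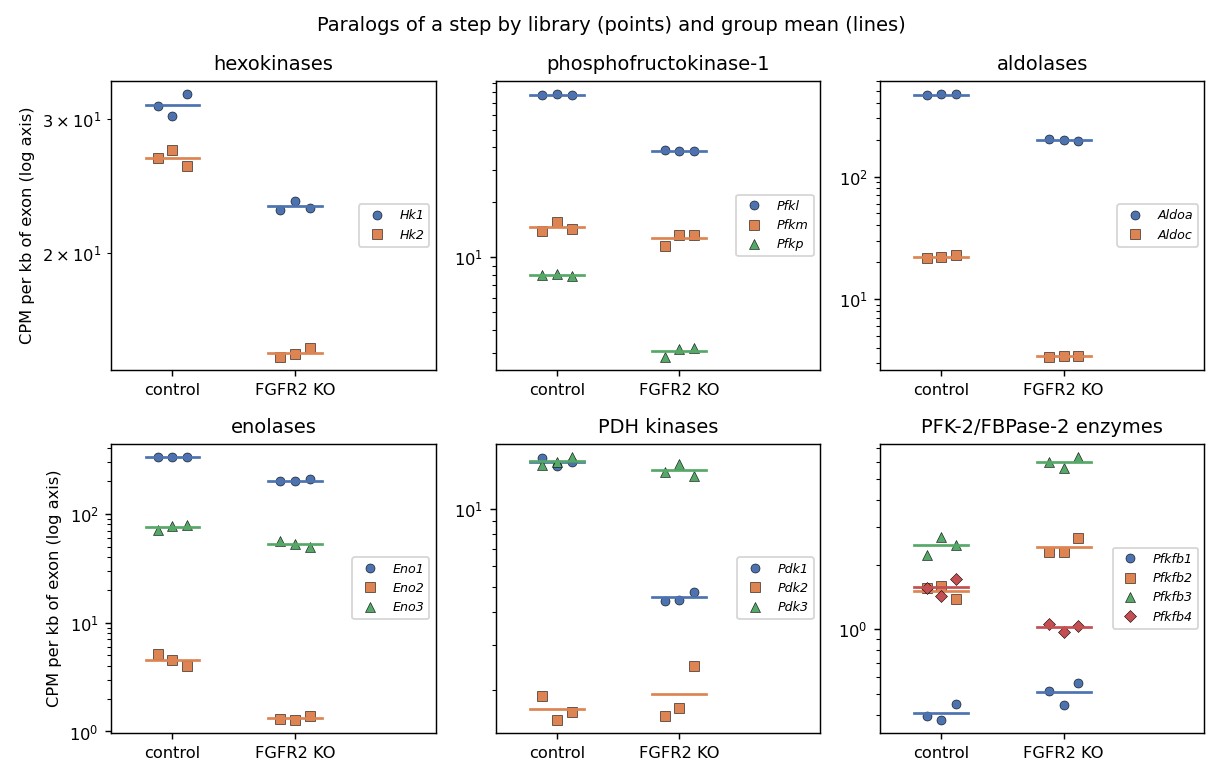
Level in CPM per kb of exon (log axis) of the paralogs of 6 steps in each of the 3 control and 3 KO libraries (points), with group means (lines). In this unit Pdk1 and Pdk3 were level in the control and apart in the KO libraries, and Pfkfb3 and Pfkfb4 moved in opposite directions.

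From uptake to lactate, then, 19 of 20 tested members fell and 0 rose by edgeR, and their median log2 fold change was -0.83. At an unadjusted p under 0.05, too, 0 of them rose, and DESeq2 and limma-voom each called 0 rises. All 20 were lower in every KO library than in any control library, as were 30.0% of all genes tested. Groups did not overlap for 28 of the 34 tested members and for 59.5% of all genes, with 29.5% of all genes higher in every KO library. Every tested member had at least 14 counts in each library, so none passed the filter through 1 group alone.

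Summed over paralogs, the steps can be set along the pathway. Of the 18 steps with a usable length, 17 were lower in the KO libraries and 17 did not overlap between groups, each of these with an exact permutation p of 0.10 (0.106 adjusted over the steps). Aldolases were at 41.4% of their control level, phosphoglycerate kinase at 44.1% and phosphoglucose isomerase at 49.0%. Glucose transporters (53.5%), phosphofructokinase-1 (53.9%) and triosephosphate isomerase (54.9%) followed. Enolases (62.0%), lactate dehydrogenases (62.4%), hexokinases (65.4%), glyceraldehyde-3-phosphate dehydrogenase (68.3%) and phosphoglycerate mutases (71.2%) fell less, and pyruvate kinase (77.9%) least of the glycolytic steps. The size of the fall thus did not run in the order of the pathway. The levels themselves did differ along it: in the control the steps from glucose uptake to phosphofructokinase-1 summed to 48.8 to 100.3 CPM per kb each, and those from aldolase to lactate dehydrogenase to 165 to 842 CPM per kb.

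**Figure D3:**
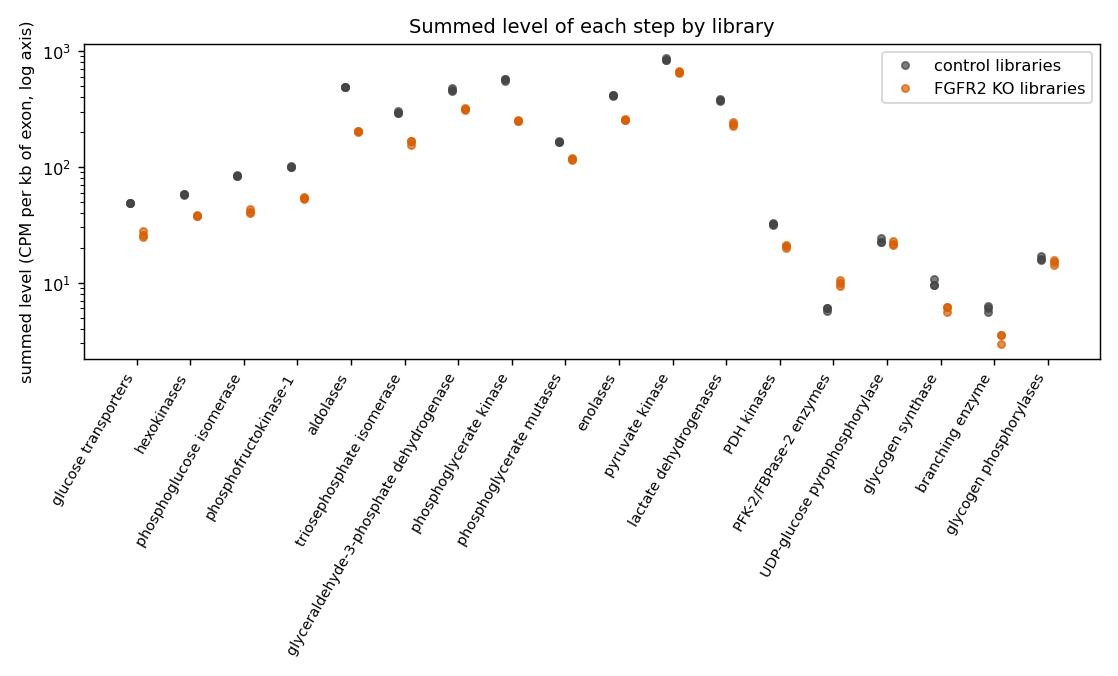
Summed level of the members of each step (CPM per kb of exon, log axis) in each control library and each KO library. Every step from glucose transporters to lactate dehydrogenases is lower in all 3 KO libraries, and the PFK-2/FBPase-2 step is higher in all 3.

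The PDH kinases showed the largest change of mix. Pdk1 (chromosome 2, 71873224 to 71903858 of mm10) fell from 123, 114 and 118 CPM to 34.45, 34.7 and 37.2 CPM, 30.05% of the control (log2 fold change -1.73, SE 0.052, 95% interval -1.84 to -1.63, edgeR adjusted p = 3.35e-26). Pdk3, a paralog on the X chromosome, was at 37.9, 38.9 and 40.6 CPM in the control against 35.6, 38.0 and 34.4 CPM with the KO. These groups overlapped, and the log2 fold change of Pdk3 was -0.12 (SE 0.065, 95% interval -0.25 to 0.01, edgeR adjusted p = 0.1185). Pdk2, the kinase with the broadest tissue range, was at 5.99, 4.87 and 5.23 CPM in the control against 5.03, 5.41 and 7.85 CPM with the KO (log2 fold change 0.19, 95% interval -0.15 to 0.53, edgeR adjusted p = 0.350). KO replicate 3 alone lay above the control libraries, and without it the log2 fold change of Pdk2 was -0.04. Pdk4, which is induced by fasting and by fatty acids, had 0 counts in every library. Per kb of exon, Pdk1 and Pdk3 were level in the control, at 15.2 and 15.3 CPM per kb, and Pdk3 was 14.1 beside 4.56 for Pdk1 in the KO libraries. The share of Pdk1 was 48.6%, 46.7% and 46.3% of PDH kinase transcripts in the control and 22.2%, 21.2% and 23.1% in the KO libraries, while that of Pdk3 went from 47.5% ± 1.67 to 68.4% ± 3.12 (SD, n = 3). Pdk3 itself was not called, so its greater share goes with the lower level of Pdk1. The kinases together were at 63.9% of the control, a log2 ratio of -0.65, or -1.07 without division by length. Which of Pdk1 and Pdk3 leads in the control, and how far apart they lie with the KO, depends on the length used. Without division by length Pdk1 held 72.6% of the step in the control and 45.7% in the KO libraries. Pdk3 then held 24.1% and 46.45%.

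The targets and opponents of these kinases moved in both directions. Of 8 subunits and phosphatases of the PDH complex, 2 rose and 4 fell (median log2 fold change -0.14), beside 27.1% and 27.5% of all genes tested. The catalytic subunit Pdha1, which the kinases phosphorylate, fell from 244 ± 6.18 to 218.5 ± 7.15 CPM (log2 fold change -0.16, edgeR adjusted p = 4.76e-04), and Dlat, the core acetyltransferase, fell by 0.18 on the log2 scale (edgeR adjusted p = 0.0011). Pdhb, the partner of Pdha1, and Pdhx, the protein that anchors Dld, rose by 0.11 and 0.33 on the log2 scale (edgeR adjusted p = 0.0439 and 0.0013), with overlapping groups for Pdhb. Dld did not pass the test (0.06). The PDH phosphatases, which reverse the kinases, were lower as well. Pdp2 fell from 33.5 ± 0.952 to 18.4 ± 2.02 CPM (SD, n = 3, log2 fold change -0.87, edgeR adjusted p = 1.52e-11) and Pdp1 from 21.7 to 17.2 CPM (log2 fold change -0.34, edgeR adjusted p = 0.0016), while the regulatory subunit Pdpr did not pass (-0.12).

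The PFK-2/FBPase-2 enzymes make and destroy fructose 2,6-bisphosphate, the strongest activator of phosphofructokinase-1, and theirs was the only step whose summed level was higher in the KO libraries, at 167% of the control. Pfkfb3 (chromosome 2, 11471433 to 11554077 of mm10), the form with the greatest excess of kinase over phosphatase activity, rose from 16.8, 20.38 and 18.65 CPM to 45.2, 42.6 and 47.9 CPM, 2.42-fold (log2 fold change 1.28, SE 0.076, 95% interval 1.12 to 1.43, edgeR adjusted p = 4.13e-17). Pfkfb2, the heart form, rose from 11.3, 11.5 and 10.1 CPM to 16.7, 16.5 and 19.3 CPM (log2 fold change 0.67 with SE 0.103, edgeR adjusted p = 9.32e-07). Pfkfb4, first described in testis, went the other way, from 7.63, 6.99 and 8.32 CPM to 5.19, 4.75 and 5.04 CPM (log2 fold change -0.61 with SE 0.148, edgeR adjusted p = 6.50e-04). Pfkfb1, the liver and muscle form, was low and did not pass the test, with 1.53 to 1.81 CPM in the control against 1.79 to 2.27 CPM with the KO (log2 fold change 0.33, 95% interval -0.22 to 0.88). The family's make-up changed with it. Pfkfb3 held 38.7%, 44.2% and 41.0% of the family per kb of exon in the control and 60.6%, 60.3% and 59.9% in the KO libraries, and Pfkfb4 went from 26.4% ± 2.55 to 10.3% ± 0.529 (SD, n = 3). The share of Pfkfb2 overlapped between the groups, although its level rose (exact permutation p = 0.50).

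**Figure D4:**
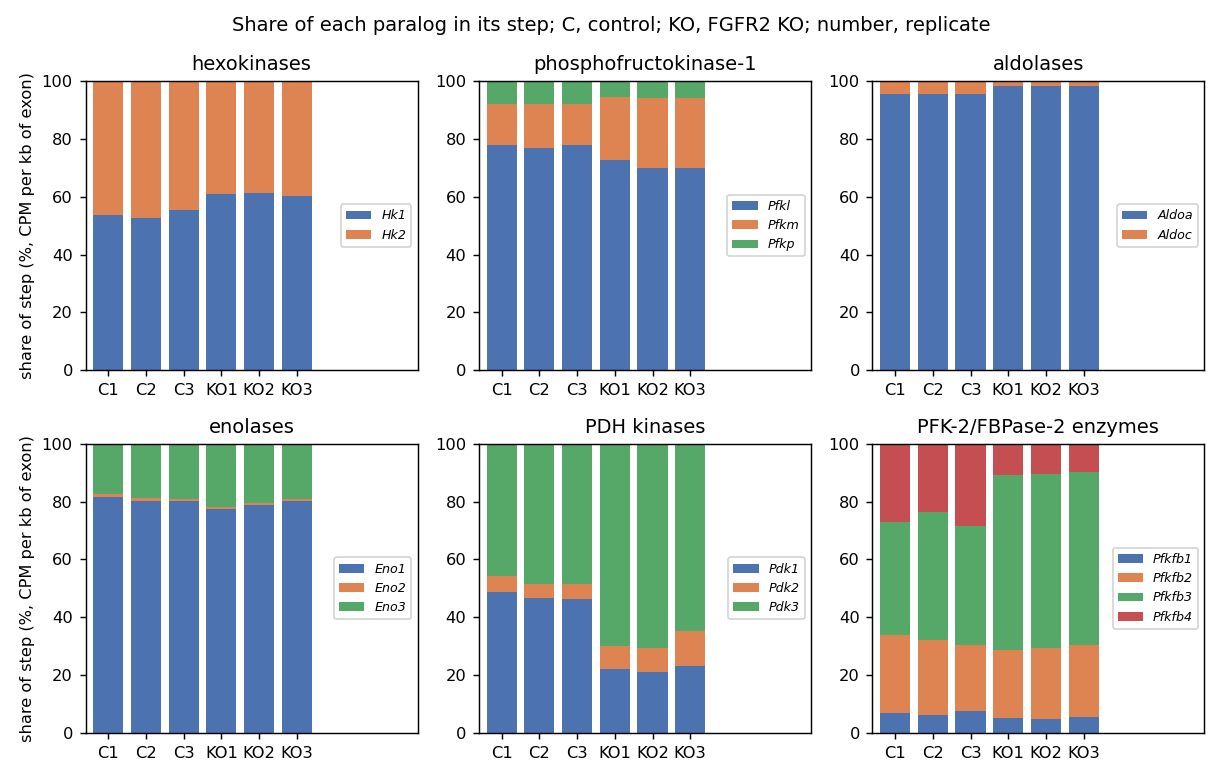
Share of each paralog in its step (percent of CPM per kb of exon) in control replicates 1 to 3 (C1 to C3) and KO replicates 1 to 3 (KO1 to KO3). Pdk1 takes 46.3% to 48.6% of its step in the control and 21.2% to 23.1% in the KO libraries, and the aldolase bars are nearly all Aldoa in both groups.

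Glycogen begins with phosphoglucomutase, which moves the phosphate of glucose 6-phosphate to carbon 1. The symbols Pgm1 and Pgm2 have been exchanged in mouse: RefSeq lists each as an older name of the other. In the deposited table the row Pgm2 lies between Efcab7 and Ror1, both on chromosome 4, where RefSeq now places Pgm1, and the row Pgm1 lies next to Tbc1d1 on chromosome 5, where RefSeq now places Pgm2. By this row order the row Pgm2 holds the gene now named Pgm1, and the row Pgm1 the gene now named Pgm2. The rows are named here as deposited, without position, length or promoter. The row Pgm2 fell from 129.5, 135 and 133 CPM to 48.9, 46.7 and 52.4 CPM (log2 fold change -1.42 with SE 0.049, edgeR adjusted p = 2.01e-24). The row Pgm1 was at 42.7, 45.8 and 47.0 CPM in the control against 49.1, 48.5 and 46.1 CPM with the KO, with overlap (log2 fold change 0.09, 95% interval -0.03 to 0.21, edgeR adjusted p = 0.225). In this pair 1 gene fell and the other was not called.

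The enzymes that extend and branch glycogen fell, while Ugp2 before them and the phosphorylases after them did not pass the test. Ugp2 makes UDP-glucose, the sugar donor, and was at 69.6, 74.2 and 68.3 CPM in the control against 65.85, 70.0 and 64.9 CPM with the KO (log2 fold change -0.08, 95% interval -0.19 to 0.02, edgeR adjusted p = 0.191). Gys1, the glycogen synthase of muscle and most other tissues, fell from 45.8, 45.5 and 51.8 CPM to 29.7, 29.8 and 26.8 CPM (log2 fold change -0.73 with SE 0.068, edgeR adjusted p = 1.61e-11). Gbe1, the branching enzyme, fell from 30.2, 32.4 and 33.7 CPM to 19.0, 15.7 and 19.1 CPM (log2 fold change -0.84 with SE 0.083, edgeR adjusted p = 6.99e-11). Glycogen phosphorylase releases the glucose again and was nearly all of the brain form, which made up 97.4% of the step per kb in the control and 97.85% in the KO libraries. That gene, Pygb, had 79.4, 75.9 and 73.7 CPM in the control against 73.1, 67.0 and 71.5 CPM with the KO. The groups lay just apart, and Pygb did not pass (log2 fold change -0.115, 95% interval -0.22 to -0.01, edgeR adjusted p = 0.0535). It passed with upper quartile scaling (edgeR adjusted p = 0.0224), with a filter at 5 CPM (0.0355), without control replicate 3 (0.0421) and without KO replicate 1 (0.0320). Pygm, the muscle form, had 14 to 28 counts per library and did not pass (log2 fold change -0.37, 95% interval -1.05 to 0.31). Pygl, the liver form, had 4 counts in all and was not tested. Of the 7 tested phosphoglucomutase and glycogen genes, 3 fell and 0 rose by edgeR, so that 42.9% were called beside 54.6% of all genes tested. At an unadjusted p under 0.05, 0 rose, and DESeq2 and limma-voom each called 0 rises.

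Beyond the members, 62 other genes of uptake, glycolysis, gluconeogenesis, pyruvate entry and glycogen were followed as a list, and 37 of them were tested. Of these, 9 rose and 12 fell, 56.8% in all beside 54.6% of all genes tested, so the count was near the background. Their median log2 fold change was -0.12. The lysosomal glucosidase Gaa, which breaks down glycogen, fell from 107 ± 1.27 to 74.2 ± 3.24 CPM (SD, n = 3, log2 fold change -0.53, edgeR adjusted p = 3.58e-12). Slc37a4, which carries glucose 6-phosphate into the endoplasmic reticulum, fell from 14.1 to 9.85 CPM, and the mitochondrial PEP carboxykinase Pck2 from 37.3 to 26.7 CPM. Mpc2, a subunit of the mitochondrial pyruvate carrier, rose from 24.6 ± 1.26 to 36.4 ± 0.669 CPM (SD, n = 3, log2 fold change 0.56, edgeR adjusted p = 1.60e-08). Bpgm, which diverts 1,3-bisphosphoglycerate to the 2,3 form, rose from 8.07 to 12.5 CPM. Adpgk, a hexokinase that uses ADP, rose from 48.2 to 59.2 CPM. Gsk3b, a kinase that inhibits glycogen synthase, rose from 126 to 149 CPM (log2 fold change 0.24, edgeR adjusted p = 1.49e-05), and the carrier gene Slc2a6 from 1.14 to 2.49 CPM.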

How the data were processed

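The authors deposited 1 table of whole-number read counts per gene and library, without normalization. FastQC 0.11.9, STAR 2.7.9a, featureCounts and R 4.1.1 are named, per the submitters' processing notes, as are the builds hg38 and mm10. The annotation, strand setting and handling of multiply matching reads were not given in the sources used here, so counts of genes with near-identical copies (Eno1, Gapdh, Pgk1 and other glycolytic genes) or overlapping genes are uncertain to that extent. Of 31017 symbols 98.2% occur in GENCODE M21.

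Here, edgeR 4.0.16 (R 4.3.3, limma 3.58.1) was run on the deposited counts of all genes: filterByExpr at its defaults (minimum count 10, total 15), TMM scaling, group as the only term, quasi-likelihood F-test, Benjamini-Hochberg adjusted p below 0.05. CPM use TMM-scaled totals, and SE is the fold change over the square root of F. Shares and step totals divide CPM by the union of exons. Members with fewer than 30 counts in all got no share. DESeq2 1.42.0, limma-voom, other scalings and filters, a minimum fold of 1.5, a replicate block and leaving out each library were alternatives. The test was checked on simulated counts with 49 or 50 genes changed at each fold. There 6.01% of its calls were false. It recovered 68% of the 1.25-fold and 92% of the 2-fold changes. Far fewer genes changed there than in these data, so scaling with many changed genes was not tested. Replicates differed by more than counting noise. Labels do not say that replicates were separate cultures, so the p-values rest on a spread among libraries that could be purely technical.

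The members and lists were chosen with earlier results of these data known. Text names all members and, of the other list, the 5 smallest adjusted p in each direction and the PDH genes, except items that are not reported here. Markers of each cell type are given by list sums, and single markers were picked for mention after their values were seen. In GENCODE M21 Aldoa has 2 entries, whose exons were merged.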

Additional observations from a re-analysis of the deposited data

How the results depend on the processing

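Of 26 called members, 16 kept direction and call under all 15 alternative fits, 9 lost the call only against a minimum fold change of 1.5, and Pfkm lost it there and without either of 2 libraries. Against that minimum, 15 members fell and 1 rose, 505 of all genes fell and 402 rose, and of the other pathway genes 2 fell and 0 rose (edgeR glmTreat, 1 rose at an unadjusted p under 0.05, and 9 rose by limma-voom and 7 by DESeq2 with no minimum). Leaving out 1 library gave 23 to 25 members down and 2 up. Pdk2, which was not called, reversed without KO replicate 3, and leaving out single libraries gave it log2 fold changes from -0.0358 to 0.3112. No share or step total changed sign under any of 9 and 10 alternatives. Exon length moved some by over 1.5 times: with the longest transcript as length, Aldoc's share fell by 1.44 rather than 2.85 percentage points, that of Eno1 fell by 0.775 rather than 1.68, and that of Eno3 rose by 1.19 rather than 2.27. Shares whose groups overlap (Eno1, Ldha, Ldhb, Pfkfb2, Pygb, Pygm) and the Ugp2 total also moved by over 1.5 times when some single libraries were left out. The order of Pdk1 and Pdk3 in the control also rests on length, at 52.2% and 42.4% of the step that way. Upper quartile scaling shifted the median of all genes by -0.02.

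Replicate numbers are shared between groups, but same-numbered libraries did not deviate together (correlations -0.03, -0.0032 and -0.06). With the replicate block, 24 members fell and 2 rose, 3237 of all genes fell and 3206 rose. At 15531790 counts or more per library, 3 counts correspond to 0.194 CPM at most, which limits what can be said of Slc2a3, Hk3, Pgam2, Pdk4 and Pygl.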
